A study of Mus musculus with 12 samples.

Results

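The genes described here are 55 mouse genes of the NF-kappaB pathway and of the cytokines, chemokines and acute-phase proteins that surround it, chosen by gene symbol. Of these, 54 were listed among 19262 genes in the table of miR-26 loss and 52 among 16785 genes in the table of miR-26a gain. Il1b was listed in neither table, and Cxcl2 and Nos2 were not listed in the second. By role they are 5 NF-kappaB subunits, 4 I-kappaB proteins, 8 kinases and adaptors of the IKK and TAK1 complexes, 8 TRAF, ubiquitin and related regulators, 5 receptors, 8 cytokines, 12 chemokines and 5 acute-phase or effector genes.

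NF-kappaB is a family of dimeric transcription factors held in the cytoplasm by I-kappaB proteins. Receptors for TNF or IL-1 recruit TRAF proteins, whose ubiquitin chains are read by the TAB adaptors of the kinase TAK1 and by the NEMO subunit of the IKK complex. IKK then marks I-kappaB for destruction, the freed Rela dimers turn on chemokines, cytokines and the I-kappaB genes themselves, and deubiquitinases such as CYLD and A20 end the signal. A slower arm, run by the kinase NIK (Map3k14), processes the Nfkb2 product and releases it with Relb. In fat, the stromal vascular cells are a main source of such chemokines, and inflammatory signals are known to hold back adipocyte differentiation.

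Messenger RNA was sequenced in 12 libraries of stromal vascular fraction cells, the non-adipocyte cells of white fat, cultured from 6-week-old C57BL/6 mice, in 4 groups of 3. WT cells were unmodified, and TKO cells were miR-26b-/-, miR-26a-2-/- and miR-26a-1-/- at once, which removes all 3 miR-26 genes, and both were grown to confluency. CTL cells carried the transgenes M2rtTA and eGFP.miR-26a and were left untreated, and Dox cells held those transgenes too and were given doxycycline for 4 days at 1 mg/ml. Both arms of this comparison thus hold the transgenes, and no group without them received the drug. The labels do not say whether replicates came from separate animals or cultures, so p-values measure only the spread between these libraries. Levels of miR-26, eGFP and M2rtTA were not analysed here, so the deletion and the induction were not checked in these libraries.

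Recovered reads per library ranged from 54978109 to 83461531 for WT and TKO and from 19301969 to 25785439 for CTL and Dox. All 12 progenitor and fibroblast markers were listed in both tables, with summed signals of 23394 to 27306 and of 30028 to 38351, and 2 of them, Pdgfrb and Thy1, were lower in TKO. The 9 mesothelial and epithelial markers summed to 51.9, 63.6 and 35.0 in WT and 16.3, 45.1 and 106 in TKO, with 0 of 8 tested called. Of 7 endothelial markers tested 1, Flt1, was lower in TKO (-0.64, adjusted p = 0.000921). Of 6 adipocyte markers tested 1, Cebpa, was higher (1.63, adjusted p = 0.00419), and Adipoq had 1.18, 1.85 and 2.80 in WT and 15.97, 16.3 and 0.787 in TKO and did not pass (adjusted p = 0.201). The part of these markers in the member results was not tested. No replicate pair agreed within sampling noise. TKO replicate 2 stood apart in macrophage markers. The summed signal of the 15 listed macrophage markers (of 16, Cd163 not listed) was 54.6, 42.9 and 75.9 in WT and 63.1, 327 and 57.2 in TKO replicates 1, 2 and 3. In the other table the 14 listed markers summed to 182, 85.8 and 43.4 in CTL and 160, 86.8 and 33.3 in Dox. None of the 12 tested macrophage markers passed the test in either comparison. Of 12 lymphoid, mast and dendritic cell markers 3 were listed, with sums of at most 9.21.

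The microRNAs removed or induced share 1 seed, the bases that pair with a target. The RefSeq mature sequences (GRCm38.p6) are shown with seed bases 2 to 8 in capitals, because the site counts that follow rest on them. Mature miR-26a-5p is encoded by 2 genes, at chr9:119031811-119031832 and chr10:126995543-126995564, and miR-26b-5p at chr1:74394324-74394344, all on the plus strand.
mmu-miR-26a-5p: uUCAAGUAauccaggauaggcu
mmu-miR-26b-5p: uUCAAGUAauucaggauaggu

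Members were scanned for DNA matches to this seed in the 3' UTR of 1 transcript per gene (GRCm38, GENCODE vM21). A 7-base match was TACTTGA (seed bases 2 to 8) or ACTTGAA (bases 2 to 7 only, then an A). The 8-base match TACTTGAA holds both. Of the 46 members tested in TKO against WT, 13 held a match of 7 or 8 bases (28.3%), beside 21.8% of the 11834 tested genes with a 3' UTR, and the median 3' UTR was longer in members, 1574 against 1200 bases. A full 8-base match was present in 4 members, Tab3, Map3k7, Ptgs2 and Lif (8.70%, beside 5.09% of all). Shown here are the 8-base matches, and the 7-base matches of Tab2 and Cyld, the members with the lowest adjusted p in the loss and the gain comparison. Capitals mark the match, each lies in the last exon, and Tab2 is written 5′ to 3′ on its own minus strand. The matches of Tab2 and Cyld are ACTTGAA, which leaves seed base 8 unmatched.
Tab3, exon 9 of 9, chrX:85630769-85630776: agaaggggaTACTTGAAttcactcct
Map3k7, exon 17 of 17, chr4:32021707-32021714: caccatccaTACTTGAAatccatacc
Ptgs2 first match, exon 10 of 10, chr1:150106028-150106035: atatctttaTACTTGAAtttcagatc
Ptgs2 second match, exon 10 of 10, chr1:150107097-150107104: tattttctcTACTTGAAgttttacat
Lif, exon 4 of 4, chr11:4270361-4270368: tcgcaaaggTACTTGAAggggaccag
Tab2, exon 7 of 7, chr10:7906230-7906236: aacaagcagACTTGAAcactgaagc
Cyld, exon 17 of 17, chr8:88748215-88748221: tttggtgtcACTTGAAacaatgaca

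The other members with a 7-base match were Ikbkg, Rel, Tnip1, Il6, Il1rl1, Traf6 and Tnfrsf1a. Ikbkg and Rel held TACTTGA, and the rest of these held ACTTGAA only. A match is a description of letters in the UTR and not evidence of binding.

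Promoters were read from RefSeq (GRCm38.p6, 250 bases before to 50 after each start) for the 43 members with an entry, and the NF-kappaB motif GGANNTTCC, on either strand (GGAANNTCC on the other), was found in 13 of them (30.2%), beside 4.86% of 27025 genes. The members were chosen as parts or known targets of NF-kappaB, so this difference in share is not an independent result. The motif is a description, and its absence from this window says nothing of the factor. Some are shown with the motif in capitals: the negative feedback gene Nfkbia, the subunit Nfkb2, the chemokine Cxcl1, the growth factor Csf1, the IL-33 receptor Il1rl1 and Cyld.
Nfkbia, chr12:55492668-55492676, minus strand: actggcttGGAAATTCCccgcgcct
Nfkb2, chr19:46305706-46305714, plus strand: tattttcgGGACTTTCCtaagcagc
Cxcl1, chr5:90891175-90891183, plus strand: gtactccgGGAATTTCCctggcccg
Csf1, chr3:107760615-107760623, minus strand: gccttgagGGAAAGTCCctaggggc
Il1rl1, chr1:40439636-40439644, plus strand: taagtttaGGAATTTCCagtaagtg
Cyld, chr8:88696873-88696881, plus strand: gaccgagcGGAAAGTCCcttcagcc

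Baseline levels differed widely between the members. Levels are compared between genes only as deposited signal (reads scaled to a common library size) per kilobase of 1 transcript. In WT the highest members were Csf1, the macrophage growth factor, at 361 ± 47.7 (SD, n = 3) signal per kilobase, and Cxcl12, the stromal chemokine that binds CXCR4, at 281 ± 33.4. The shared cytokine receptor chain Il6st stood at 122 ± 6.37, the TNF receptor Tnfrsf1a at 95.1 ± 1.69 and the monocyte chemokine Ccl2 at 77.7 ± 7.86. Rela, the main activating subunit, was at 31.6 ± 2.40, above Nfkb1 at 14.3 ± 0.327, Nfkb2 at 11.2 ± 0.787, Relb at 3.33 ± 0.473 and Rel at 1.98 ± 0.0761. At the low end lay Tnf at 0.0976 ± 0.0717, Cxcl2 at 0.0316 ± 0.0156 and Nos2 at 0.0222 ± 0.00832. In CTL, whose table was normalized apart, the top 4 were the same genes, with Csf1 at 301 ± 49.9 and Cxcl12 at 260 ± 43.6. The monocyte chemokine Ccl8 was at 48.0 ± 19.0 there and 10.7 ± 4.52 in WT, a pair of values from tables that were not tested against each other.

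**Figure D1:**
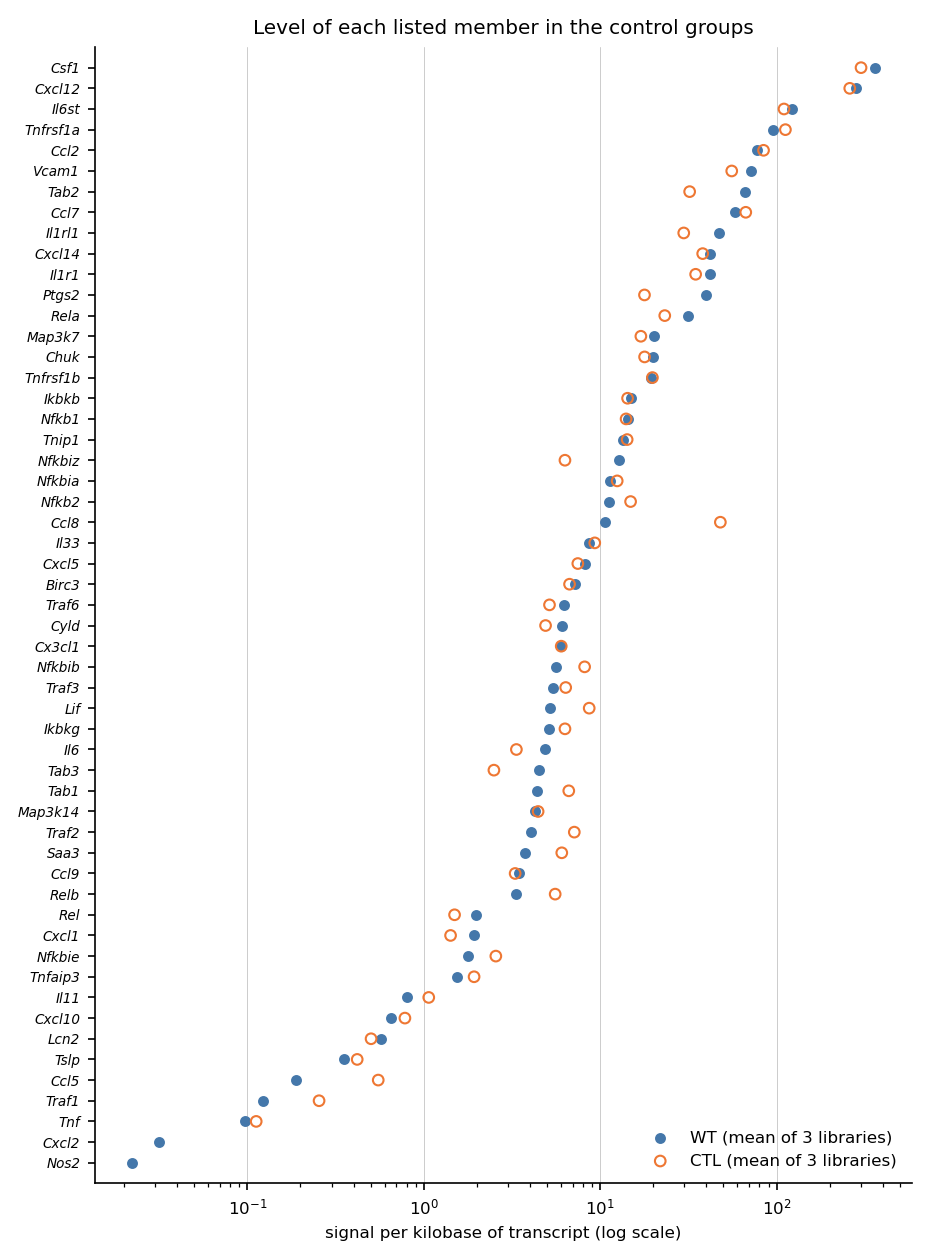
Level of the 54 members listed in the WT table, as signal per kilobase of transcript on a log axis, with filled points for the mean of 3 WT libraries and open points for the mean of 3 CTL libraries, each from its own table. Csf1 and Cxcl12 lead both groups, and Tnf, Cxcl2 and Nos2 lie lowest.

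TKO against WT asks what the loss of all miR-26 genes does to these genes. Of the 46 members tested, 11 were higher and 7 lower at a limma adjusted p under 0.05, and 28 did not pass (39.1% called). Over all 12649 genes tested 45.8% were called, 23.2% higher and 22.7% lower, so the share of members called was not above the background. The chemokines lay mostly on the higher side and the receptor-proximal adaptors on both: 4 of 9 tested chemokines rose and none fell, while the adaptors and kinases gave 2 higher and 2 lower of 8. The median log2 fold change was 0.05 over members and -0.00 over all genes. With scaling by library size instead, the medians moved to 0.17 and 0.11, and 66.7% of called genes were higher rather than 50.6%, with 13 members higher and 6 lower (45.4% of all genes called, 30.2% higher and 15.1% lower). In 50% of members the WT and TKO values did not overlap (14 higher, 9 lower), beside 58.8% of all genes (29.4% higher, 29.4% lower). Without WT replicate 1, 2 or 3 the members called higher were 7, 6 and 5, and all genes called higher fell to 17.7%, 16.4% and 19.3%. Fewer cells of a type and less RNA per cell cannot be told apart in these bulk libraries.

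**Figure D2:**
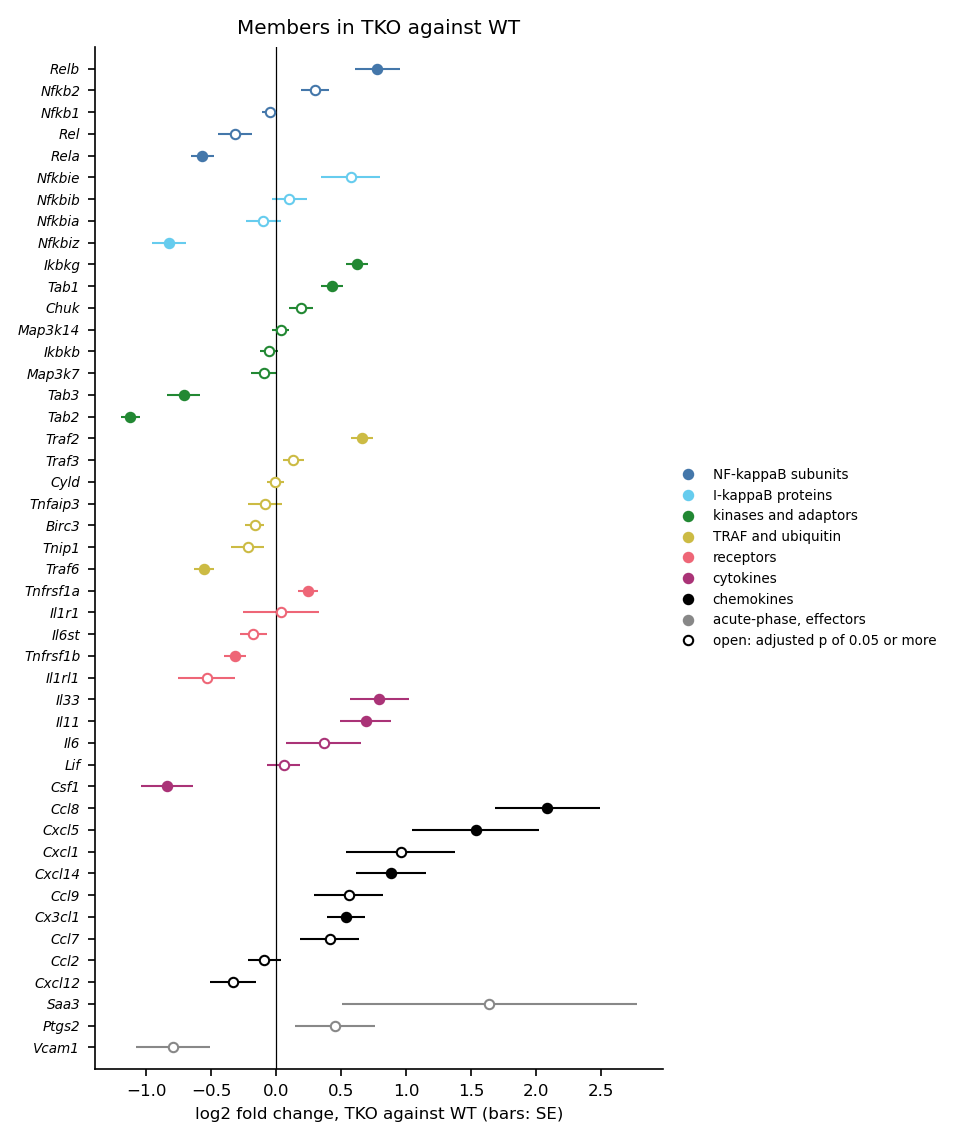
Log2 fold change of TKO against WT with its SE for the 46 members tested, grouped and coloured by role; filled points passed an adjusted p of 0.05 and open points did not. Ccl8 lies furthest to the right among called members, at 2.08, and Tab2 furthest to the left, at -1.12.

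Among the NF-kappaB subunits, 1 of 5 rose and 1 fell. Rela, which carries the activation domain of the classical dimer, had WT signals of 78.9, 91.9 and 86.3 and TKO signals of 53.8, 63.2 and 55.5, so all TKO libraries lay below all WT libraries. Its log2 fold change was -0.57 ± 0.09 (SE), adjusted p = 0.00301. Relb (chr7:19606217-19629438), the partner of the slower arm, went from 6.23, 7.52 and 8.30 to 11.2, 17.2 and 11.99, with all TKO libraries above WT. Its change was 0.78 ± 0.17, adjusted p = 0.0113, and 0.50 (adjusted p = 0.0136) with the trend of change over transcript length and GC content taken out. Nfkb2, the precursor of the Relb partner, had 40.2, 42.8 and 46.3 against 47.4, 61.2 and 52.0, again with no overlap, and did not pass (0.30, adjusted p = 0.0579). It passed under library-size scaling (0.42, adjusted p = 0.0319), with DESeq2 (0.31, adjusted p = 0.0357) and without TKO replicate 1 (0.38, adjusted p = 0.0267). In this gene 20.8% of exon bases lie opposite exons of another gene, with the strand setting of the counting not given in the sources used here. Rel was at -0.32 (adjusted p = 0.0947) and Nfkb1 at -0.05 (adjusted p = 0.518).

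Of the 4 I-kappaB genes, Nfkbiz, an atypical nuclear form, fell from 54.0, 54.2 and 49.6 to 23.6, 32.5 and 32.5, by 0.82 ± 0.13 on the log2 scale (adjusted p = 0.00311). The classical feedback inhibitor Nfkbia had overlapping values, 18.7, 19.0 and 16.3 against 17.6, 19.3 and 13.7, with a change of -0.10 (adjusted p = 0.583). The adaptors of TAK1 moved apart. Tab2, which binds ubiquitin chains, went from 296, 301 and 277 to 135, 124 and 142, the furthest drop of any member tested (-1.12 ± 0.07, adjusted p = 0.000252). Its relative Tab3 fell too, from 28.4, 30.5 and 27.3 to 17.7, 14.2 and 20.04 (-0.71 ± 0.13, adjusted p = 0.00477). Tab1, the activator subunit of TAK1, rose from 12.6, 12.7 and 13.8 to 16.9, 19.4 and 17.6 (0.43 ± 0.08, adjusted p = 0.00629). Ikbkg, which encodes NEMO, rose from 36.9, 35.1 and 36.2 to 62.8, 52.3 and 53.6 (0.62 ± 0.08, adjusted p = 0.00169). Once the trend of the change with transcript length and GC content was taken out, Tab3 was at -0.42 and Tab1 at 0.27, both still called. The kinases themselves did not pass: TAK1 (Map3k7) was at -0.10, Ikbkb at -0.06, Chuk at 0.19 and NIK (Map3k14) at 0.04. Chuk gained a call in 4 of 17 alternative settings, among them library-size scaling and removal of the length and GC trend.

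The TRAF and ubiquitin regulators gave 1 higher and 1 lower of 7 tested, and the receptors 1 and 1 of 5. Traf2, which acts below the TNF receptors, rose from 11.7, 11.8 and 13.5 to 18.9, 21.2 and 19.98 (0.66 ± 0.09, adjusted p = 0.00155). Traf6, which acts below IL-1 and Toll-like receptors, fell from 38.6, 37.5 and 39.5 to 25.0, 24.2 and 28.4 (-0.56 ± 0.08, adjusted p = 0.00195). In both genes the groups did not overlap, and with the length and GC trend taken out Traf6 was at -0.33, still called. The deubiquitinase Cyld had 48.3, 46.9 and 50.4 against 51.2, 46.6 and 47.1, with a change of -0.01 (adjusted p = 0.940). Removing the trend of the change with transcript length and GC content put it at 0.30 (adjusted p = 0.0248). Tnfaip3, which encodes A20, was at -0.09 (adjusted p = 0.615). Both TNF receptors passed narrowly and in opposite directions. Tnfrsf1a had 207, 207 and 201 against 266, 243 and 222 (0.24 ± 0.08, adjusted p = 0.0421), and Tnfrsf1b 80.5, 74.1 and 67.7 against 63.3, 57.3 and 57.1 (-0.32 ± 0.08, adjusted p = 0.0217). The Tnfrsf1a call was lost without WT replicate 1, 2 or 3 (adjusted p = 0.103, 0.112 and 0.119) or TKO replicate 1 or 2 (0.0829 and 0.0663), and its change was 0.05 (adjusted p = 0.696) once the length and GC trend was taken out. Its call was also lost with no filter on low values (0.0531) and with the replicate block (0.0636). The Tnfrsf1b call was lost without WT replicate 1 or 2 (0.0721 and 0.0755), without TKO replicate 3 (0.0577) and under library-size scaling (-0.19, adjusted p = 0.0722). The IL-33 receptor Il1rl1 had 302, 247 and 201 against 230, 145 and 148, overlapping values at -0.53 (adjusted p = 0.0882).

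Of the 5 tested cytokines 2 rose and 1 fell. Csf1 went from 1686, 1540 and 1292 to 1119, 726 and 719, a drop of 0.84 ± 0.20 on the log2 scale (adjusted p = 0.0134) in the member with the highest level per kilobase. That call was lost without WT replicate 1 or 2 (adjusted p = 0.0543 and 0.0519). The alarmin Il33 rose from 25.2, 21.1 and 19.3 to 46.2, 46.3 and 26.3 (0.79 ± 0.23, adjusted p = 0.0283), and lost its call without WT replicate 2 or 3 (adjusted p = 0.0875 and 0.0858) or TKO replicate 1 or 2 (0.0720 and 0.0663). Il11, of the IL-6 family, was low throughout, at 1.54, 1.87 and 1.27 against 2.81, 2.37 and 4.38 (0.69 ± 0.19, adjusted p = 0.0270). It was lost without WT replicate 1, 2 or 3 (adjusted p = 0.0794, 0.0511 and 0.0846) and after the length and GC trend was taken out (0.56, adjusted p = 0.0706), and edgeR put its change at 1.04. The replicate block also ended the Il11 call (adjusted p = 0.0597). Il6 and Lif overlapped between groups, at 0.37 (adjusted p = 0.336) and 0.06 (adjusted p = 0.738).

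Of the 9 chemokines tested, 4 rose, and 5 had all TKO libraries above all WT libraries, Cxcl1 besides the 4. Over all genes tested, 23.2% were called higher and 29.4% had all TKO libraries above all WT libraries. Ccl8 (chr11:82115185-82116799), a monocyte attractant, went from 4.66, 3.63 and 8.05 to 24.3, 43.6 and 15.01 (2.08 ± 0.40, adjusted p = 0.00658). It stayed called when each of the 6 libraries was left out in turn, with changes of 1.70 to 2.44, the lower one without TKO replicate 2. Cxcl5 (chr5:90759360-90761624), a neutrophil attractant, had 19.6, 12.7 and 6.63 against 70.1, 24.4 and 28.0, with TKO replicate 1 highest and all TKO libraries above WT (1.53 ± 0.49, adjusted p = 0.0405). Its call was lost without WT replicate 2 or 3 (adjusted p = 0.0979 and 0.108), without TKO replicate 1 or 3 (0.0732 and 0.0584) and with no filter on low values (0.0539). Cxcl14 had 76.8, 89.6 and 64.5 against 216, 125 and 104 (0.88 ± 0.27, adjusted p = 0.0351), and Cx3cl1, the membrane-bound fractalkine, 17.4, 21.8 and 20.6 against 35.9, 25.9 and 26.9 (0.54 ± 0.15, adjusted p = 0.0236). Cxcl14 was lost without WT replicate 1, 2 or 3 (adjusted p = 0.0938, 0.0600 and 0.104) and after the length and GC trend was taken out (0.65, adjusted p = 0.105). Its change was 0.58 without TKO replicate 1. Cx3cl1 was lost without WT replicate 1 or 3 (0.0805 and 0.0540), with that trend removed (0.42, adjusted p = 0.0651) and with the replicate block (0.0576). Cxcl1, a neutrophil attractant of low level, had 2.12, 1.97 and 1.398 against 9.84, 3.55 and 2.28 and did not pass (0.96, adjusted p = 0.104). Ccl2, the most abundant chemokine per length after Cxcl12 in WT, did not separate the groups (-0.09, adjusted p = 0.582).

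**Figure D3:**
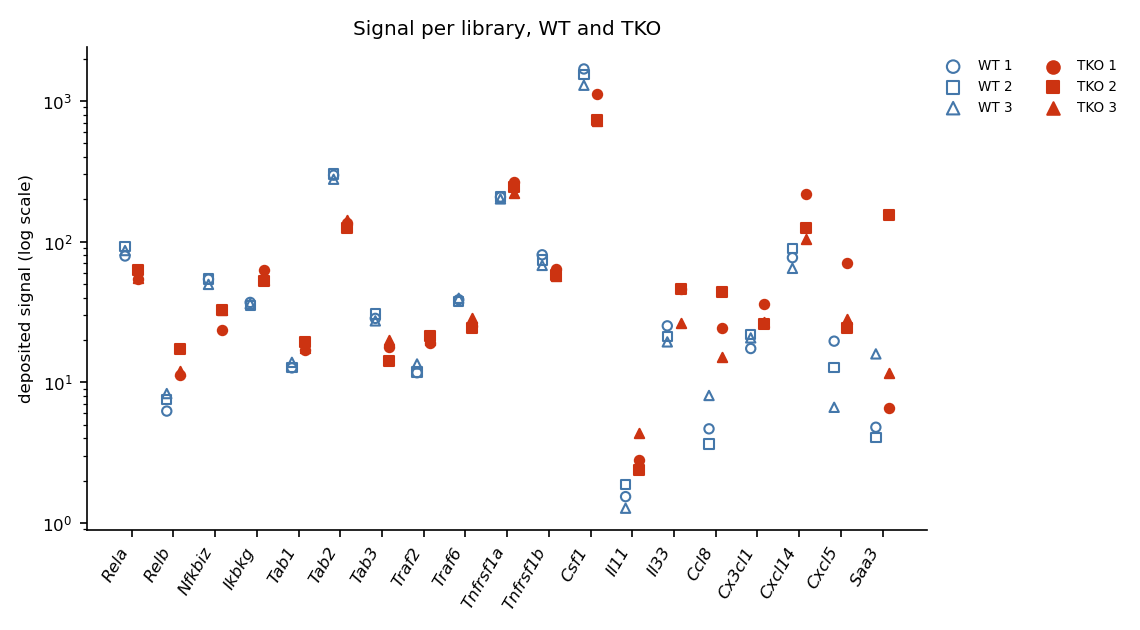
Deposited signal per library on a log axis for the 18 called members and Saa3, with open symbols for WT and filled symbols for TKO and 1 marker shape per replicate number. The groups do not overlap in the 18 called members, and Saa3 spans 4.07 to 15.9 in WT and 6.56 to 155 in TKO.

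None of the 3 acute-phase and effector genes tested passed, and 1 of them, Vcam1, had an unadjusted p under 0.05; edgeR called none and DESeq2 called Vcam1 (adjusted p = 0.0212) of the 2 to which it gave a p. Saa3 (chr7:46711998-46715700), an acute-phase protein made in inflamed fat, had WT signals of 4.78, 4.07 and 15.9 and TKO signals of 6.56, 155 and 11.6, so that TKO replicate 2 alone was high and the groups overlapped (1.64 ± 1.13, adjusted p = 0.275). Without that library the change was 0.31 (adjusted p = 0.674), and with edgeR on all libraries it was 2.84 (adjusted p = 0.113), while DESeq2 gave no p for it. The same library had the high macrophage marker sum, 327 beside 42.9 to 75.9 in the other 5 libraries, and 0.795 for Tnf and 0.858 for Nos2, where the other libraries had at most 0.265 and 0.117; the part of these markers in the Saa3 value was not tested. Leaving it out, 11 members were higher and 8 lower, with 22.3% of all genes higher and 21.7% lower. The prostaglandin enzyme Ptgs2 had 163, 227 and 143 against 310, 149 and 294 (0.45, adjusted p = 0.269), and the adhesion molecule Vcam1 283, 235 and 225 against 227, 102 and 124 (-0.79, adjusted p = 0.0600). Vcam1 gained a call in 6 of 17 alternative settings. Besides DESeq2 these included the replicate block (adjusted p = 0.0232) and leaving out TKO replicate 1 (-1.13, adjusted p = 0.00274). The 8 members below the filter, Cxcl10, Lcn2, Tslp, Ccl5, Traf1, Tnf, Cxcl2 and Nos2, had signals of at most 2.68 and were not tested.

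**Figure D4:**
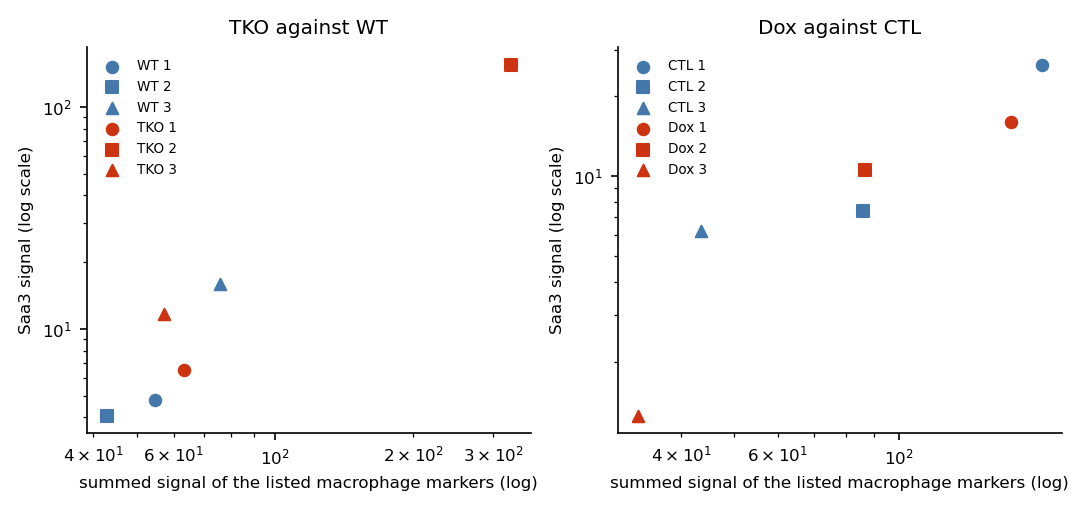
Saa3 signal against the summed signal of the listed macrophage markers, both on log axes, with each point 1 library, for TKO and WT (left) and Dox and CTL (right). TKO replicate 2 lies apart at 327 and 155, and the CTL and Dox libraries run from 33.3 to 182 on the marker axis.

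Members with a seed match gave 2 called higher (Ikbkg and Tnfrsf1a) and 3 lower (Tab2, Tab3 and Traf6) of 13. Over all 2582 genes with a match, 15.8% were higher and 26.6% lower. Of the 33 members without a match 9 were higher and 4 lower (27.3% and 12.1%), beside 25.7% and 21.6% of the 9252 genes without one. The 4 members with an 8-base match had log2 fold changes of -0.71 for Tab3, -0.10 for Map3k7, 0.06 for Lif and 0.45 for Ptgs2. With the replicate block Tnfrsf1a lost its call, and members with a match gave 1 higher and 4 lower of 13. Beside them 14.1% of all genes with a match were higher and 22.9% lower in that fit.

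Of the other genes of the pathway, a list of 46 signalling genes gave 6 higher and 14 lower of 42 tested (14.3% and 33.3%), with a median of -0.11. A list of 48 cytokine, chemokine and acute-phase genes gave 10 higher and 1 lower of 33 tested (30.3% and 3.03%), with a median of 0.36. Over all genes tested, 23.2% were higher and 22.7% lower. Icam1, the leukocyte adhesion receptor, rose from 30.3, 36.7 and 38.6 to 70.2, 98.4 and 65.7 (1.11 ± 0.17, adjusted p = 0.00263), with 20.2% of its exon bases opposite another gene. Tnfsf11, the cytokine RANKL, rose from 3.46, 3.07 and 2.27 to 14.3, 8.77 and 7.36 (1.46 ± 0.24, adjusted p = 0.00345). Socs3 and Ier3, feedback genes, rose by 0.47 and 0.60, and Il11ra1 by 0.74, although 38.4% of its 75-base windows occur in other genes and its value is uncertain. On the signalling side Irak3 (-0.84), Tank (-0.70) and Irak2 (-0.65) fell and Bcl10 rose (0.61), as did Ube2n (0.42), 10.2% of whose windows are shared. The lower count of both lists together, 15, was 7 with library-size scaling, 7 without WT replicate 2 and 8 without WT replicate 3. The share of all genes called lower fell too, from 22.7% to 15.1%, 14.7% and 17.5% in those settings.

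Dox against CTL asks what added miR-26a does to the same genes. No gene of 12634 passed the limma test (0% called), and 748 (5.92%) had an unadjusted p under 0.05, 2 of the 47 tested members among them, Cyld and Cxcl5. edgeR also called none, and DESeq2 called 99 genes, of which Cyld was the only member. With the replicate number as a block, which the libraries' shared deviations allow, 265 genes passed (2.1%, 0.562% higher and 1.54% lower) and 3 members were lower and none higher: Cyld, Il1rl1 and Cxcl5. Without replicate 1, 2 or 3 the blocked fit called 134, 1534 and 591 genes, and without replicate 2, 15 members (31.9%) and 7.92% of all genes were lower. Of the 47 members, 14 were lower in all 3 same-numbered pairs (29.8%) beside 18.2% of all genes, and 5 were higher in all pairs, beside 21.4%. The groups did not overlap in 5 members (10.6%, beside 12.2% of all, 6.5% higher and 5.66% lower): Nfkb1, Tab1 and Traf3 higher, Cyld and Tab3 lower. The median log2 fold change was -0.07 over members and 0.01 over all genes.

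Cyld (chr8:88697028-88751945), the deubiquitinase that ends NF-kappaB signals, had the most even drop, from 38.6, 40.2 and 39.2 in CTL to 27.4, 28.0 and 25.3 in Dox, a change of -0.53 with a blocked SE of 0.08 and adjusted p = 0.0210 (0.330 with no block). It was lost in the blocked fit without replicate 1 (0.0618). In TKO its change was -0.01. The chemokine Cxcl5 had 6.61, 13.6 and 15.1 in CTL and 3.17, 6.88 and 2.09 in Dox, a lower value in each pair although the ranges overlap (-1.38, blocked SE 0.25, adjusted p = 0.0334, and 0.695 with no block). Without replicate 3 the blocked change was -0.88. Its change in TKO was 1.53; the difference between the 2 comparisons was not tested. Il1rl1 had 90.5, 121 and 262 in CTL and 49.7, 101 and 137 in Dox, lower in each pair in spite of a wide spread between replicates (-0.68, blocked SE 0.12, adjusted p = 0.0313, and 0.936 with no block). Leaving out replicate 3 moved that change to -0.55, and replicate 2 to -0.89. The change of Il1rl1 in TKO was -0.53, in the same direction, and did not pass (adjusted p = 0.0882). In the blocked fit after the length and GC trend was taken out, Vcam1 was higher and Cyld, Tnip1, Il1r1, Il1rl1 and Cxcl5 were lower, of 978 genes called (7.75%, 3.13% higher and 4.62% lower).

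**Figure D5:**
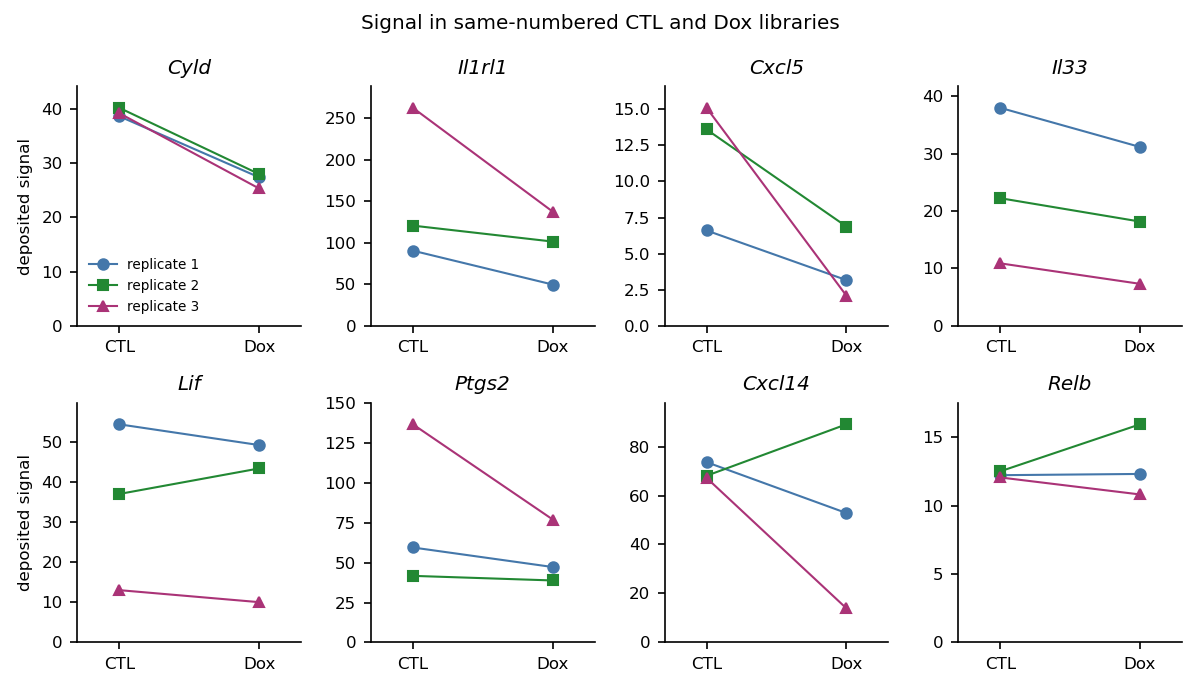
Deposited signal in CTL and Dox for 8 members, with a line joining the libraries of the same replicate number. Cyld, Il1rl1, Cxcl5, Il33 and Ptgs2 run down in every pair, Lif and Cxcl14 run down in 2 of 3, and Relb stays within 10.8 to 15.96.

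Other members with large spread between replicates kept it in both arms, as in Lif (54.5, 37.1 and 13.1 in CTL; 49.3, 43.5 and 10.1 in Dox) and Il33 (38.0, 22.2 and 10.9; 31.1, 18.2 and 7.33), with log2 fold changes of -0.09 and -0.36 (blocked adjusted p = 0.751 and 0.0975). Both genes and the macrophage marker sum (182 and 160 in replicate 1, 43.4 and 33.3 in replicate 3) were highest in replicate 1 and lowest in replicate 3 in both arms. The mesothelial and epithelial sum (185, 56.8 and 29.6 in CTL, 197, 66.8 and 39.1 in Dox) and the endothelial sum (138, 100.1 and 91.5, 171, 118 and 103) had the same order. The part of these markers in the spread was not tested. The genes with 8-base matches were at -0.20 for Tab3 (blocked adjusted p = 0.354), 0.06 for Map3k7, -0.42 for Ptgs2 and -0.09 for Lif. In the blocked fit 2 of the 13 members with a seed match were lower, Cyld and Il1rl1, beside 4.69% of the 2581 genes with one. Among the 9316 genes without a match 0.751% were lower. The part of the matches in these changes was not tested. Saa3 had 26.4, 7.38 and 6.22 in CTL and 16.1, 10.5 and 1.25 in Dox (-0.64, blocked adjusted p = 0.321), and Relb 12.2, 12.5 and 12.1 against 12.3, 15.96 and 10.8 (0.06). Tab2, Traf6 and Rela, which moved in TKO, were at -0.04, 0.18 and -0.16 and did not pass. Among the other pathway genes the blocked fit called 2 lower of 73 tested, beside 1.54% of all genes. They were the receptor Tlr3 (-0.65) and the IL-1 co-receptor Il1rap (-0.72), with limma adjusted p = 0.427 and 0.432 with no block. In TKO the log2 fold changes of Tlr3 and Il1rap were -0.50 and -0.55, given here as values only. The members below the filter here were Ccl5, Lcn2, Tslp, Traf1 and Tnf, with signals of at most 1.18.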

How the data were processed

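Messenger RNA of 12 libraries was read from 2 deposited tables, 1 for each comparison. Alignment used TopHat2 2.0.12 and GRCm38 (mm10), counting featureCounts 1.4.6 and testing edgeR 3.8.6, and StringTie 1.2.2 is named without a role, all per the submitters' processing notes. As deposited by the authors, signal is the read count divided by depth and by a factor of each library. The log2 columns, the score (a likelihood ratio) and the p-value columns are from the authors' test, per the file headers, and give no result here. Each signal was a whole multiple of 1 read (100% of values within 0.1), which gave the recovered reads. Of the gene IDs 99.8% and 99.9% were found in GENCODE vM21. Every column had its sample (0 unmatched), though those of Dox replicates 2 and 3 carry the same sequencing suffix.

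Genes that reached a signal of 1 in 3 or more of the 6 libraries of a table were tested with limma 3.58.1 (trend) on log2(signal + 1) in R 4.3.3, with Benjamini-Hochberg adjustment over all genes and a threshold of 0.05. Fold changes are on that scale, which understates low genes. The files hold scaled values, so edgeR 4.0.16 and DESeq2 1.42.0 ran on recovered reads as alternatives. Other alternatives were a pseudocount of 0.5, no filter, library-size scaling, a replicate block, removal of the length and GC trend (spline, 4 df) and leaving out each library. The fits were tested on simulated data. Tables were made with Python 3.11.15, numpy 2.4.6, pandas 2.3.3 and matplotlib 3.10.9.

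The members, lists and tests were chosen with earlier results of these data known. Described in full are members past the threshold in either comparison, Relb, Cxcl5, Saa3, and members whose groups do not overlap and differ by 1 log2 unit or more. Of each list of other pathway genes, up to 5 with the smallest p are named. Other members are given as values, chosen after these were seen. Same-numbered CTL and Dox libraries deviated together (correlations over genes of 0.86, 0.58 and 0.74), so their numbers pair, while those of WT and TKO (0.45, -0.13 and -0.29) do not. No member had more than 3.00% of its 75-base windows in other genes.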

Additional observations from a re-analysis of the deposited data

How the results depend on the processing

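In TKO against WT, leaving out 1 library moved the members called higher between 5 and 12 and lower between 5 and 9, the other pathway genes higher between 12 and 21 and lower between 7 and 15, and all genes between 3938 and 5723. Fewer samples were fitted in each. Library-size scaling gave 7 other pathway genes lower where 15 were reported, and 15.1% of all genes lower where 22.7% were reported. The change of Cyld reversed to 0.30 with the length and GC trend removed. WT and TKO numbers do not pair the libraries. With the replicate block 11 members were higher and 9 lower, with 5101 genes called (20.6% of all genes higher and 19.7% lower). These were not all the same genes, since Tnfrsf1a, Il11 and Cx3cl1 lost their calls there. With the block and the length and GC trend removed, 12 members were lower (26.1%), beside 18.7% of all genes. Leaving out a replicate number under the block gave 1 to 12 members higher, 4 to 8 lower, 3 to 19 and 3 to 9 other pathway genes, and 1117 (without replicate 1), 3654 and 4468 genes in all; the cause was not tested.

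In Dox against CTL the test without block called none, and leaving out 1 library did not change that. DESeq2 gave 1 member and 2 other pathway genes lower and 99 genes in all. The replicate block gave 3, 2 and 265, and the block with the length and GC trend removed gave 1 member higher, 5 lower, 2 and 9 other pathway genes and 978 genes. Under the block, leaving out a replicate number gave 0 to 1 members higher, 3 to 15 lower, 0 to 2 and 3 to 19 other pathway genes, and 134, 1534 and 591 genes in all; the cause was not tested. Of the gene-level results 828 of TKO and 787 of Dox counted as unchanged, staying on the same side of the threshold. These include changes of sign where neither fit passed and the shift was within the spread between libraries. In TKO 67 results lost their call, 14 changed sign by more than that spread and 1 changed sign with a call. Another 41 TKO and 43 Dox results gained a call. Replicate libraries differed by 13.8 to 145 times the sampling noise (chi-square per degree of freedom).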
